A study of Mus musculus with 12 samples.

Results

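The sites described here were open-chromatin summits that appeared in the list of Silc1-/- injured dorsal root ganglia and in none of the 3 other lists of the series. Summits of all 4 lists were pooled, and neighbours within 200 bp were joined into 78381 loci. A locus was kept when all of its summits came from the Silc1-/- injured list, its highest score was at least 4 and no summit of another list lay within 1 kb. This left 1057 sites, or 1.35% of all loci. The sites were thus chosen by the list and by the deposited score, and both are given below as a description only.

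In dorsal root ganglia the somata of sensory neurons lie among glia, vascular, connective tissue and immune cells. Open chromatin marks promoters and enhancers, and a cut peripheral axon is known to set off a programme of transcription in the neuron cell body that supports regrowth. Promoters tend to be open in many cell types, while distal sites inside and between genes vary more between cell types and states. In an ATAC-seq experiment a transposase cuts accessible DNA, and a peak summit is the position where the cut fragments pile up highest. Silc1 is a long noncoding RNA studied for its part in regeneration of these neurons.

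The 12 libraries fell into 4 groups of 3: wild-type (Silc1+/+) sham-operated, wild-type injured, Silc1-/- sham-operated and Silc1-/- injured mice. Each library came from 6 lumbar L4-L6 ganglia, so it pools all cell types of the ganglion. Injured mice had the sciatic nerve crushed 2 times for 30 seconds at mid-thigh, and mice were anaesthetised with xylazine and ketamine. The time after the crush, the age of the mice and the design of the Silc1 allele were not stated in the descriptions read here. Silc1 had no entry under that name in the gene table used, so its own locus was not analysed here. Each group has 1 list of summits, which leaves no measure of the spread among mice, and no difference between lists was tested. Ranges given in brackets after a percentage are its 95% Wilson interval, for counting error alone.

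The Silc1-/- injured list held 35815 summits, against 27279 in wild-type sham ganglia, 43841 in wild-type injured and 48332 in Silc1-/- sham ganglia. Read totals are not in the files, so the depth behind each list is unknown. The list was checked against marker genes of the tissue. It had a summit within 1 kb of an end of 8 of 22 sensory neuron markers, 3 of 20 Schwann cell and satellite glia markers, 2 of 16 macrophage markers, 1 of 16 endothelial and mural cell markers, 0 of 12 lymphocyte markers and 21 of 25 housekeeping genes. For genes of other tissues it was 4 of 18 skeletal muscle genes and 1 of 20 vomeronasal receptor genes. The muscle share was thus above those of the glia, macrophage and endothelial markers. The Silc1-/- injured list had the fewest of the 4 lists for glia (6 in wild-type sham ganglia, 11 in wild-type injured and 8 in Silc1-/- sham ganglia) but also for housekeeping genes (22, 22 and 23), immediate-early genes (16, against 17, 18 and 18) and macrophage markers (3, 4 and 4). It was not the lowest for sensory neuron markers (8, against 7, 10 and 12). For sensory channels and receptors it was (7, against 10, 8 and 11), as for axon guidance genes (12, against 13, 13 and 14). The same held for fibroblast and perineurial markers (3, against 5, 4 and 5). It tied for the fewest in regeneration-associated genes (22 of 39, against 22, 26 and 24) and neutrophil markers (2 of 10, against 2, 4 and 2).

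Few of the sites lay in promoter sequence that could be read. Of 32851 RefSeq promoter windows (GRCm38.p6, the assembly of mm10), each reaching from 250 bases before to 50 bases after an annotated start, 7 held a site, or 0.0213%. A locus present in all 4 lists was found in 7044 windows, or 21.4%. These shares cannot be compared, since there were 1057 sites but 14347 such loci. The rule also bars a site within 1 kb of another list's summit, so a window with such a summit could not hold a site. How far the rule lowers the share was not tested. Windows holding sites of another list alone were not counted. The coding genes among the 7 were Ksr2, Sh2d6, Pik3ip1, Onecut1 and Anks1b, and the others were the long noncoding RNA genes Gm40182 and Ppp2r2cos. The 250 bases before the start are shown for the 4 coding genes whose site lay upstream of it, because these are the sites whose own bases are at hand. Sequences run 5′ to 3′ in the direction of the gene, and capitals mark any of 11 short motifs searched on both strands.
Ksr2: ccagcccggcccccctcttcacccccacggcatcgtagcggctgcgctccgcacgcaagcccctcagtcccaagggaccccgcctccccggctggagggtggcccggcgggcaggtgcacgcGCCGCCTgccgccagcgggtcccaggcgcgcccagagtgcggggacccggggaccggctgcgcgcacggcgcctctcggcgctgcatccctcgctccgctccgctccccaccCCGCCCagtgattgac
Sh2d6: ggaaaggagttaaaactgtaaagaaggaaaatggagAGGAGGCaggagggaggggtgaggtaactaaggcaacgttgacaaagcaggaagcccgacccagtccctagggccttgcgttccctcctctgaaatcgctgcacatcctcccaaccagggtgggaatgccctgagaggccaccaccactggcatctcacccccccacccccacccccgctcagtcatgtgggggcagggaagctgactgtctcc
Onecut1: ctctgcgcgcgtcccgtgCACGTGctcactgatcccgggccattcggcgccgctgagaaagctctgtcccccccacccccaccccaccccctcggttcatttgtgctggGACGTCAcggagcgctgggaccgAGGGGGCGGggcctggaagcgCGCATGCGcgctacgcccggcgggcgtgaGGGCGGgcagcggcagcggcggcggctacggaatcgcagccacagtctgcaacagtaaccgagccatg
Anks1b: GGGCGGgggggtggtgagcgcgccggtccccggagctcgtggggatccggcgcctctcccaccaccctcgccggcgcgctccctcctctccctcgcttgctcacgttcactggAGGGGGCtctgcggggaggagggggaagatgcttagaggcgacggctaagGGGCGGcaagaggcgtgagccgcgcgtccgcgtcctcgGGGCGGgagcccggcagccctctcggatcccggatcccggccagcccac

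The stretches are chr5:117413752-117414001 (plus strand) for Ksr2, chr6:72520037-72520286 (minus strand) for Sh2d6, chr9:74861671-74861920 (plus strand) for Onecut1 and chr10:90829404-90829653 (plus strand) for Anks1b. The motifs were those named AP-1, CRE, GC box, ETS, CCAAT box, NRF1, YY1 and SOX, 2 E-boxes and a CTCF core, and their letters are given with the counts below. In the Onecut1 stretch a CTCF core and a GC box overlap, and so do 2 NRF1 matches on opposite strands. A match is a run of letters and not a bound site.

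Onecut1 encodes a homeodomain transcription factor. Its site at chromosome 9, position 74861897, lay 24 bases upstream of the annotated start (gene ID 15379, 74861921 to 74889648) and had a score of 4.94. The nearest summit of another list was far away: 91113 bp in wild-type sham, 91156 bp in wild-type injured and 91158 bp in Silc1-/- sham ganglia. The 3 other lists thus shared a distant site, with scores of 17.3, 20.8 and 26.4, and had no summit at the Onecut1 start.

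Ksr2 encodes a scaffold of the Raf-MEK-ERK kinase pathway. Its site at chromosome 5, position 117413801, lay 201 bases upstream of the start (gene ID 333050, 117414002 to 117767996) with a score of 6.27. The other lists had their nearest summits 24715 to 24775 bp away, at scores of 14.6 in wild-type sham ganglia, 38.6 in wild-type injured and 15.5 in Silc1-/- sham ganglia. Anks1b encodes a postsynaptic scaffold protein. Its site (chromosome 10, 90829528, score 4.39) lay 126 bases before a start inside the gene (gene ID 77531, 89872915 to 90973300), with the nearest other summit 10579 bp away in Silc1-/- sham ganglia. The Sh2d6 site, at a gene for an SH2-domain protein (chromosome 6, 72520192, score 5.55; gene ID 71130, 72513641 to 72534206), lay 156 bases before a start inside the gene, and all 3 other lists had a summit 7239 to 7328 bp away. The Pik3ip1 site, at a gene for an inhibitor of PI3 kinase (chromosome 11, 3330762, score 5.39; gene ID 216505, 3319241 to 3342971), lay 31 bases downstream of a start. All 3 other lists had a summit 1635 to 1670 bp from it, with scores of 26.2 to 30.1.

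The windows of Ksr2, Onecut1 and Anks1b were rich in G and C, at 75.3%, 73.0% and 76.3%. Those of Sh2d6, Pik3ip1, Gm40182 and Ppp2r2cos held 57.3%, 54.7%, 56.7% and 59.0%. The median was 52.7% over all windows and 63.3% over windows with a locus in all 4 lists (quartiles 58.0 and 68.7). A GC box, spelled GGGCGG, was in 3 of the 7 windows (Ksr2, Onecut1 and Anks1b), against 35.7% of all windows and 74.9% of those open in all 4 lists. A CTCF core, spelled AGGNGGC, was in 5 of 7 (all but Gm40182 and Ppp2r2cos), against 29.4% of all windows and 43.9% of those open in all 4 lists. AP-1, the motif of Fos and Jun proteins spelled TGANTCA, was in 0 of 7 and in 7.81% of all windows. ETS, spelled CCGGAAG, was in 0 of 7 and in 8.86% of all windows, and YY1, spelled ATGGCGG, in 0 of 7 and in 4.05%. The Onecut1 window alone among the 7 held CRE, spelled TGACGTC and found in 3.21% of all windows. It alone also held NRF1, spelled GCATGCG and found in 3.58% of them, and the E-box spelled CACGTG, found in 7.15%. The other E-box, spelled CAGCTG and found in 16.3% of all windows, was in that of Pik3ip1. The CCAAT box (its name gives its letters; 37.4% of all windows) was in that of Sh2d6. SOX, spelled ACAANGG and found in 13.6%, was in that of Ppp2r2cos. With 7 windows these counts describe the windows and no more.

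Most of the sites had low scores that repeated from site to site. Each summit carries the score its authors deposited, the −log10 of either a p-value or a q-value, which is not compared here between lists. It ran from 4.01 to 111, with a median of 5.08 and quartiles of 4.39 and 5.80. Only 266 different scores occurred among the 1057 sites. Of these, 10 were each held by at least 5 sites and together by 760 sites, or 71.9%. The lowest of these steps, 4.39, was held by 318 sites (30.1%), the next, 5.08, by 189 (17.9%), and 5.80 by 111 (10.5%). The highest, 11.45, was held by 5. Scores of at least 10 were reached by 35 sites (3.31%). A single summit made up 1055 of the sites and 2 sites had more than 1.

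**Figure D1:**
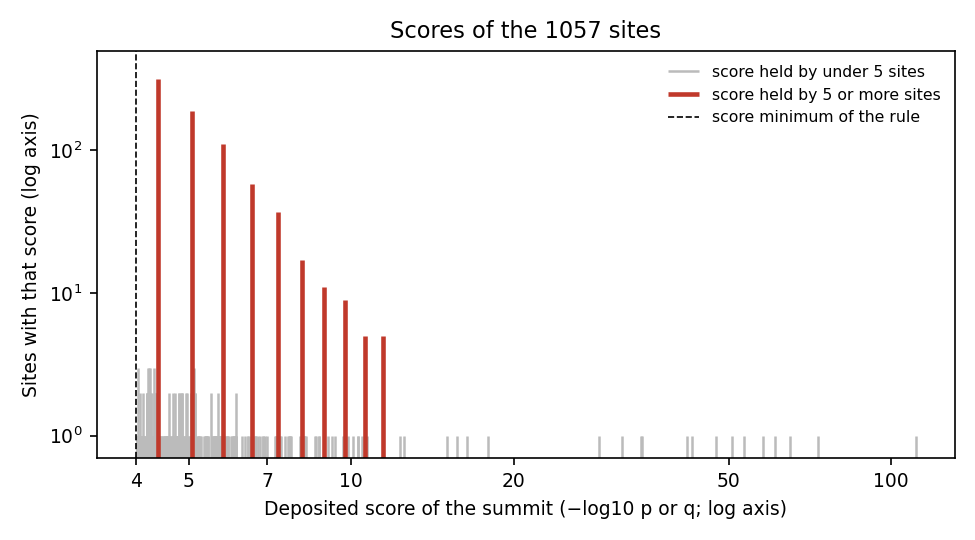
Number of sites (vertical log axis) at each deposited score (horizontal log axis, −log10 of p or q) for the 1057 sites, with red lines for scores held by 5 or more sites and grey lines for the others. The red steps fall from 318 sites at 4.39 to 5 at 11.45, and the few sites above 20 each have a score of their own.

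The score minimum of the rule fell between 2 often repeated scores of this list, 3.73 and 4.39. The 5 sites just inside it had scores of 4.01 to 4.03 and lay in Plekhg5, Plcg2, Plekhg3 and Syt2 and nearest to Nme4. The 5 loci just outside, at 3.98 to 4.00 when rounded, lay in Gpr179, Mettl8, Npas1, Cenpo and C77080.

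Sites on the steps differed in place from the remaining 297. Of the sites on a step, 3.82% (2.67 to 5.43) lay within 1 kb of a gene end and 49.2% (45.7 to 52.8) outside genes, and for 29.9% (26.7 to 33.2) some other list's summit was closer than 10 kb. Of those off the steps, 10.4% (7.45 to 14.4) lay at gene ends, 26.3% (21.6 to 31.5) outside genes and 67.3% (61.8 to 72.4) within 10 kb of another list's summit. Score and distance to other lists are both values the rule used, so this split is a description only.

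Most of the highest-scoring sites stood close to summits of other lists. Of 14 sites with a score of at least 20, 12 lay within 5 kb of some other list's summit, whose scores ran from 2.19 to 60.6, and 11 had summits of all 3 other lists within 10 kb. In Fhit, which encodes a nucleotide hydrolase at a fragile site (gene ID 14198, chromosome 14, 9550092 to 11162061), the site at 11049018 scored 65.0. The wild-type sham list had a summit of 42.7 at 1236 bp from it, the wild-type injured list one of 49.7 at 1515 bp and the Silc1-/- sham list one of 60.6 at 1049 bp. All 4 lists thus had a summit within the same few kilobases, and those of the other lists lay just beyond the distance of the rule.

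In Sik3, a salt-inducible kinase gene (gene ID 70661, chromosome 9, 46012820 to 46224194), the site at 46135891 scored 57.8. Its neighbours scored 34.0 in wild-type sham (1812 bp away), 41.3 in wild-type injured (1221 bp) and 47.6 in Silc1-/- sham (1765 bp). The same held for sites outside genes nearest to Qrfprl, a neuropeptide receptor-like gene (chromosome 6, 65300817, 60.9), nearest to Gm51754 (chromosome 1, 31960135, 53.4), Cbwd1 (chromosome 19, 24917508, 50.8) and Gm20268 (chromosome 1, 101106394, 42.8), and for 1 site in Flg2, an epidermal filaggrin gene (chromosome 3, 93210268, 41.8). At each of these 5 sites the 3 other lists had summits of 26.7 to 58.0 within 10 kb. The site nearest to Apba2, which encodes a neuronal adaptor protein (chromosome 7, 64473244, 47.4), had a wild-type sham summit of 46.9 at 4393 bp, while those of wild-type injured (46.0) and Silc1-/- sham (51.1) were 10587 and 20841 bp away.

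The top site of all (chromosome 17, 3022842, score 111) lay 76080 bp from the long noncoding RNA gene A230045G11Rik. At 2255 bp from it stood a wild-type injured summit of 100.2, and the nearest of wild-type sham and Silc1-/- sham, 1891 and 4590 bp away, scored 2.19 and 2.71. The next highest site was unlike the rest: at position 19509354 in 4921504E06Rik (gene ID 70909, chromosome 2, 19462837 to 19553910) the score was 73.3, and no other list had a summit within 10 kb. They scored 2.42 at 10588 bp in Silc1-/- sham, 4.89 at 44527 bp in wild-type sham and 2.57 at 44866 bp in wild-type injured ganglia.

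**Figure D2:**
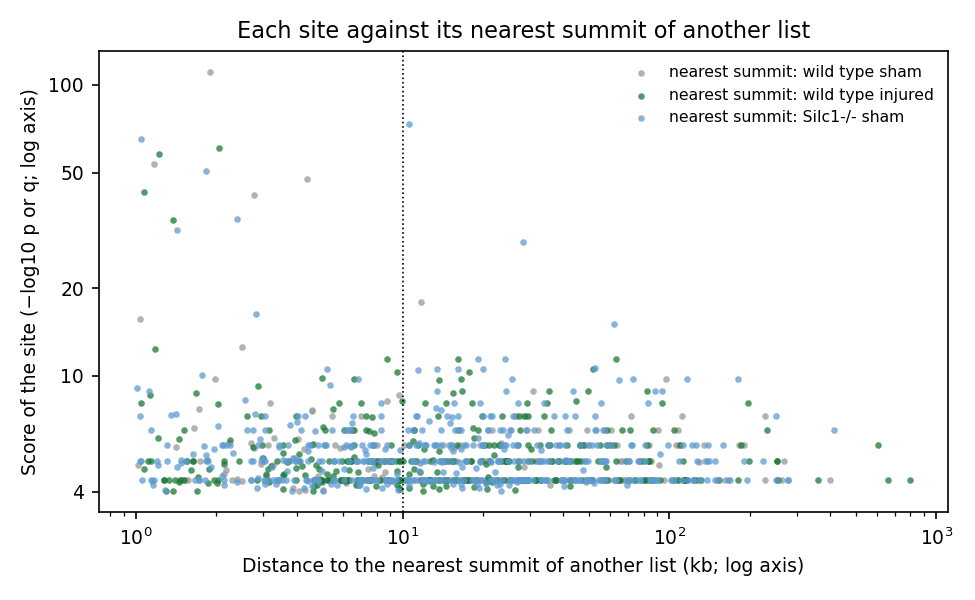
Score of each site (vertical log axis, −log10 of p or q) against its distance to the nearest summit of any other list (horizontal log axis, kb), coloured by the list that holds that summit; the dotted line is at 10 kb. Most sites with scores of at least 20 sit within 5 kb of another list's summit, while sites on the score steps form horizontal rows out to 796 kb.

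Over all sites, the nearest summit of another list was 1.01 to 796 kb away, with a median of 14.3 kb and quartiles of 5.54 and 35.7 kb. It belonged to the Silc1-/- sham list for 502 sites (47.5%), to the wild-type injured list for 372 (35.2%) and to the wild-type sham list for 183 (17.3%), which is the order of the lengths of these lists. A summit of another list lay within 10 kb of 427 sites, or 40.4% (37.5 to 43.4). For sites found by the same rule in another list alone the share was 59.6% (54.8 to 64.2) in wild-type sham, 51.9% (50.3 to 53.5) in wild-type injured and 37.1% (35.7 to 38.6) in Silc1-/- sham. A distance of over 50 kb was seen for 18.0% of the sites, against 10.4%, 6.47% and 15.6%.

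The 630 sites with no other list's summit within 10 kb were led by 4921504E06Rik. Next came Capn8, a calpain protease gene (gene ID 170725, chromosome 1, 182564749 to 182634456), where the site at 182629873 scored 28.8 and the other lists had no summit within 28131 bp. Their nearest summits scored 2.92 to 3.63. A site at position 98023145 of chromosome 16, 6389 bp from B230307C23Rik, scored 18.0, and one at 153025410 of chromosome 4, 123238 bp from Gm31055, scored 15.1. Those in Lin7a, which encodes a synaptic scaffold protein (chromosome 10, 107342938), in Bmp5, a bone morphogenetic protein (chromosome 9, 75891167), near Gm40797 (chromosome 10, 126681181) and near Cypt2, a spermatid gene (chromosome X, 105527529), all had the same step score of 11.45. The last of the 10 lay in Gm30310 (chromosome 16, 8883862, 10.7) and in Phactr2, which encodes a phosphatase and actin regulator (chromosome 10, 13402144, 10.6). Only 4 of these 10 had a score above the highest step.

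Sites seldom lay at gene ends. Gene ends here are both ends of coding and long noncoding RNA genes. Within 1 kb of one there were 60 sites, or 5.68% (4.44 to 7.24). Inside genes but farther from an end were 545 (51.6%, 48.5 to 54.6), and outside genes 452 (42.8%, 39.8 to 45.8). Of all 78381 loci 24.2% lay at gene ends, and of the 14347 in all 4 lists 55.6%. The same rule gave 413 sites in the wild-type sham list alone (0.527% of loci), 3604 in wild-type injured (4.60%) and 4380 in Silc1-/- sham (5.59%). Their shares at gene ends were 12.3% (9.52 to 15.9), 13.0% (12.0 to 14.2) and 8.17% (7.40 to 9.02). The Silc1-/- injured sites thus had the lowest share of the 4 under this rule. The intervals cover counting error alone and not the spread among mice, so no test between lists was possible.

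**Figure D3:**
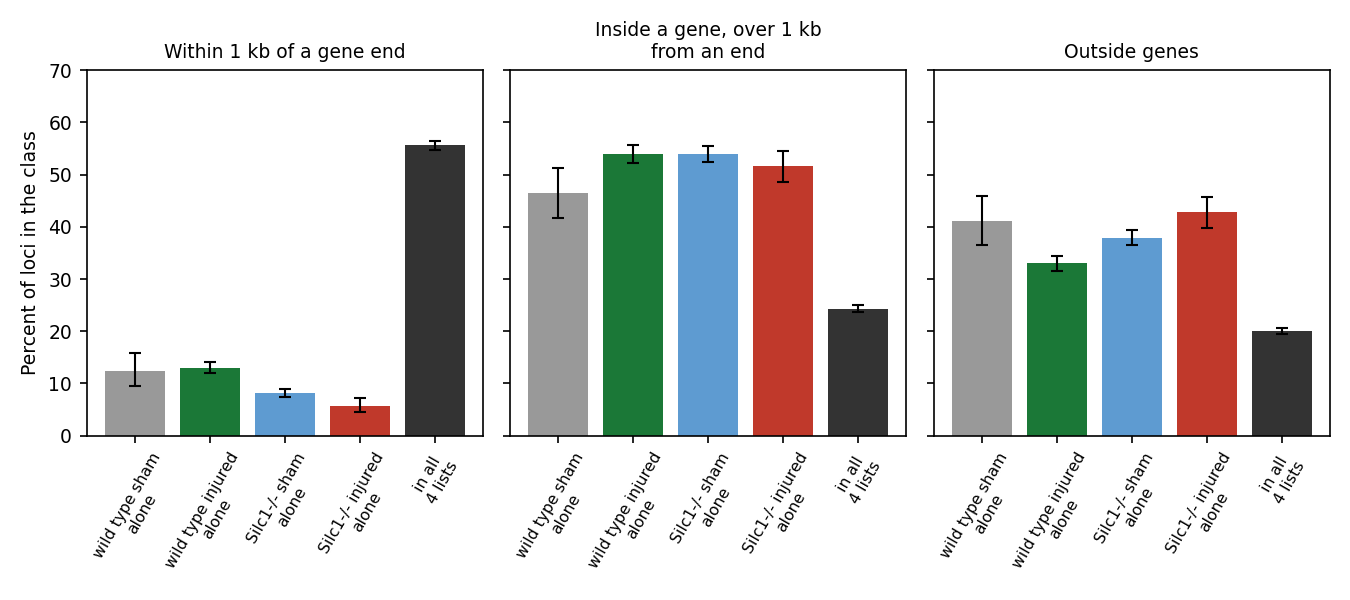
Percent of loci in each class (vertical axis) within 1 kb of a gene end, inside a gene over 1 kb from an end, and outside genes, for sites in 1 list alone by the same rule (413, 3604, 4380 and 1057 sites from left to right) and for the 14347 loci in all 4 lists; bars are percents and whiskers 95% Wilson intervals. Sites of the Silc1-/- injured list alone (red) have the lowest share at gene ends, 5.68%, against 55.6% for loci in all 4 lists.

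The share at gene ends rested on the distance the rule asks for. Among the 986 loci of the Silc1-/- injured list alone with a score of at least 4 but another list's summit within 1 kb, 268 lay at gene ends, or 27.2% (24.5 to 30.0). With them included the share was 16.1%, above the 12.2% of Silc1-/- sham, and the Silc1-/- injured list was no longer the lowest. The distance to the nearest gene end had a median of 16.1 kb over the 1052 sites on numbered chromosomes, X and Y, and exceeded 100 kb for 141 of them (13.4%, 11.5 to 15.6). That share was 8.13% in wild-type sham alone, 4.00% in wild-type injured and 11.3% in Silc1-/- sham.

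Of the 60 sites at gene ends, 30 were nearest to a coding gene and 30 to a long noncoding RNA gene. The strand was known for 44, of which 25 were at the start of the gene and 19 at the far end, so 56.8% (42.2 to 70.3) were at starts. Of loci in all 4 lists at gene ends, 97.0% of those with a known strand were at starts. Of sites of the other lists alone, 63.4% (48.1 to 76.4) were at starts in wild-type sham, 68.6% (63.8 to 73.2) in the wild-type injured list and 61.3% (55.4 to 67.0) in Silc1-/- sham. A lower share at starts than in constant loci was thus common to sites of all 4 lists alone, and no difference between the lists was tested.

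The highest-scoring sites at coding gene ends were at Elobl, an elongin B-like gene (chromosome 11, 88966848, score 9.06, 83 bp inside an end), Sec22c, a vesicle-transport gene (chromosome 9, 121679703, 7.65, 342 bp outside an end), Bcat1 and Plpp4 (both 7.31) and Ksr2. Bcat1 encodes a branched-chain amino acid transaminase (gene ID 12035, chromosome 6, 144993835 to 145076157), and its site at 145076043 lay 114 bp inside an end. The other lists had no summit within 28317 bp of it. Plpp4 encodes a lipid phosphatase (gene ID 381925, chromosome 7, 129256390 to 129391412). Its site at 129256833 lay 443 bp inside an end, with a Silc1-/- sham summit of 1.87 at 6529 bp. At Elobl, in contrast, all 3 other lists had a summit 1012 to 1648 bp away.

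Inside coding genes there were 500 sites, which fell in 470 genes, or 2.15% of 21883, a site in overlapping genes counting for each. Of these genes 443 held 1 site, 20 held 2 and 7 held 3 or more. They were long, with a median length of 117 kb against 17.2 kb over all coding genes. The median was 80.4 kb for genes holding sites of the wild-type sham list alone, 66.0 kb for wild-type injured and 103 kb for Silc1-/- sham. A site was found in 0.312% of coding genes up to 20 kb long, 1.63% of those of 20 to 50 kb, 3.42% at 50 to 100 kb, 8.81% at 100 to 300 kb and 17.8% of longer ones.

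**Figure D4:**
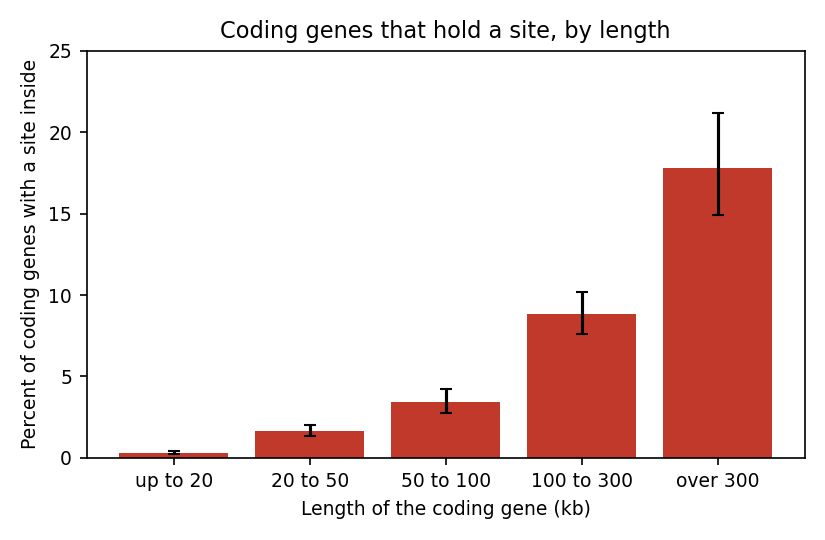
Percent of coding genes with at least 1 site inside (vertical axis) by length of the gene in kb (horizontal axis), with 95% Wilson intervals. The share rises at every step, from 0.312% of genes up to 20 kb to 17.8% of genes over 300 kb.

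The start of the host gene was open in all 4 lists (a shared locus within 1 kb) in 162 of the 358 host genes whose strand was known, or 45.3% (40.2 to 50.4), against 38.2% of all coding genes. By length, open starts made up 40.0% of hosts up to 20 kb (31.8% of all coding genes of that length), 51.4% at 20 to 50 kb (47.2%), 54.1% at 50 to 100 kb (47.8%), 43.2% at 100 to 300 kb (42.5%) and 37.5% above (34.4%). The host share was above that of all coding genes in each band, but by little at 100 to 300 kb and above. Each band held only 30 to 125 hosts, and no difference was tested. Genes holding sites of the wild-type sham list alone had open starts in 34.4% (27.3 to 42.3), those of wild-type injured in 45.0% (42.3 to 47.8) and those of Silc1-/- sham in 44.1% (41.5 to 46.8). Of the 470 host genes, 144 (30.6%) also held a site of the Silc1-/- sham list alone, which is 8.07% of the 1784 genes of that class. They shared 100 genes (21.3%) with wild-type injured, or 6.06% of 1650, and 13 (2.77%) with wild-type sham, or 6.60% of 197. These classes of 1784, 1650 and 197 genes are out of 21883 coding genes. Host genes of every class were longer than coding genes in general, and the overlap was not compared at equal gene length. Whether it exceeds what length alone gives was not tested.

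The genes with most sites were long as well. Bach2, a transcriptional repressor best known in lymphocytes (gene ID 12014, chromosome 4, 32238413 to 32586109, 348 kb), held 4 sites, with scores of 16.4, 7.27, 6.93 and 4.73. All summits counted, Bach2 held 18 in the Silc1-/- injured list, 17 in Silc1-/- sham, 16 in wild-type injured and 5 in wild-type sham ganglia. The Silc1-/- injured count was thus close to those of the 2 longer lists.

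Aff3, Galnt13, Myo16, Nav2, Tenm4 and Zfp978 held 3 sites each. In Aff3, a nuclear transcription regulator of 455 kb, the scores were 4.12 to 5.08, and the lists held 4 (wild-type sham), 7 (wild-type injured), 19 (Silc1-/- sham) and 12 (Silc1-/- injured) summits. Nav2, a neuron navigator gene of 651 kb linked to neurite growth, had 5, 19, 23 and 11 in the same order, and Tenm4, a teneurin gene of 739.9 kb, 1, 7, 16 and 10. In these 3 genes the Silc1-/- injured list was below the Silc1-/- sham list. In Galnt13, which encodes a glycosyltransferase of neurons, the counts were 3, 5, 8 and 8, and in Myo16, an unconventional myosin gene, 1, 2, 2 and 4. The Galnt13 sites at 54885848 and 55026818 on chromosome 2 lay 138329 and 279299 bp from any summit of another list. Zfp978, a zinc finger gene that overlaps its neighbours Zfp988 and Zfp991 in the annotation, had 6, 9, 9 and 18 summits.

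Sites rarely lay close to each other: 28 of 1057 (2.65%, 1.84 to 3.80) had another site within 10 kb. The share was 12.7% for the wild-type injured and 7.12% for the Silc1-/- sham list alone, whose sites are more numerous, but 5.08% for the fewer sites of wild-type sham.

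By chromosome, the sites followed all loci within their intervals except on chromosomes 17 and 19, where they were fewer (2.65% against 4.21% and 1.23% against 2.57%). Chromosome X held 31 sites, or 2.93% (2.07 to 4.13), against 3.08% of all loci. Among sites of the other lists alone X held 4.36% in wild-type sham ganglia, 1.33% in wild-type injured and 0.868% in Silc1-/- sham. Of all summits, X held 3.52% in the Silc1-/- injured list, 3.57% in wild-type sham ganglia, 3.01% in wild-type injured and 2.71% in Silc1-/- sham. Both shorter lists thus had the larger X share. The share of sites was recounted, after seeing the data, with every list cut to the length of the shortest. X then held 4.06% of the Silc1-/- injured sites and 3.82% of the wild-type sham sites, against 0.699% for Silc1-/- sham and 1.19% for wild-type injured. The larger shares of sites thus stayed with the same lists at equal length. The X share of all summits was not recounted, and whether length plays a part in it was not tested. Chromosome Y held 7 sites, or 0.662% (0.321 to 1.36), against 0.323% of all loci. Among sites of the other lists alone Y held 3 each. That was 0.726% in wild-type sham ganglia, 0.0832% in wild-type injured and 0.0685% in Silc1-/- sham. The larger Y shares were thus in the same lists as for X. Unplaced sequences held 5 sites, or 0.473%, against 0.429% of all loci.

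Genes named for nerve regeneration or for the cell types of the ganglion had sites about as often as any gene. A site lay inside or within 50 kb of 1500 of all 21883 coding genes, or 6.85%, and of 20 of the 280 genes in 14 lists, or 7.14% (4.67 to 10.8). The count was 3 of 39 regeneration-associated genes, 3 of 25 sensory channels and receptors, 3 of 25 axon guidance genes, 2 of 12 fibroblast and perineurial markers, 2 of 16 endothelial and mural cell markers and 2 of 25 housekeeping genes. It was 1 of 22 sensory neuron markers, 1 of 16 macrophage, 1 of 10 neutrophil and 1 of 12 lymphocyte markers and 1 of 18 skeletal muscle genes. No site was near any of 20 Schwann cell and satellite glia markers, 20 immediate-early genes or 20 vomeronasal receptor genes, for which the upper bound is 16.1%. The interval of every list held 6.85%, but the upper bounds ran from 16.1% to 44.8%. Single lists were thus too short to show a modest excess or lack. Gene length was not adjusted for. Its median ran from 3.15 kb in neutrophil markers to 197 kb in axon guidance genes, against 17.2 kb over all coding genes.

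**Figure D5:**
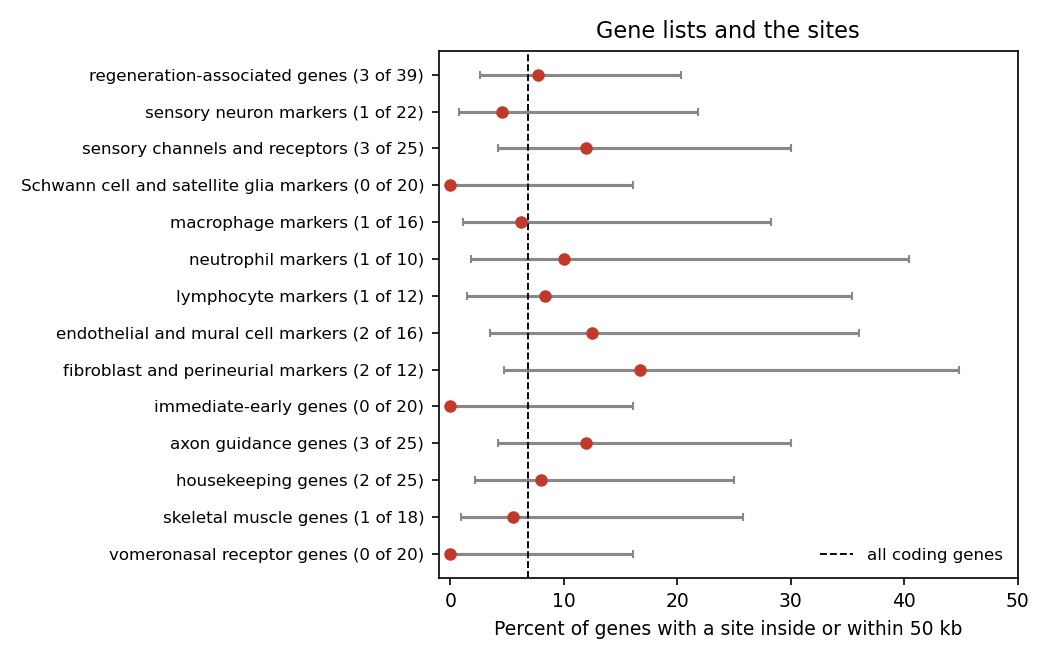
Percent of genes of each list with a site inside or within 50 kb (horizontal axis), with 95% Wilson intervals and the number of genes beside each name; the dashed line is the 6.85% of all coding genes. The interval of each of the 14 lists crosses the line.

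Of the regeneration-associated genes, Atf3, an injury-induced transcription factor, had a site 38.9 kb from its nearer end (chromosome 1, 191222224, score 5.62), which was in or nearest to D730003I15Rik. The other lists had summits 1964 to 2244 bp from it, with scores of 8.87 in wild-type sham ganglia, 22.3 in wild-type injured and 3.79 in Silc1-/- sham. Smad1, a mediator of BMP signalling, had one 40.5 kb away (chromosome 8, 79297916, 6.07), with summits of 39.0, 63.6 and 29.2 in the same 3 lists within 3007 bp. Both thus lay a few kilobases from summits of all 3 other lists. The site inside Stmn2, which encodes a tubulin-binding protein of growth cones (chromosome 3, 8550141, 4.27), was 11909 bp from the nearest other summit.

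Sites inside Ntrk3, Scn8a and Cacna1e lay 5510 to 253862 bp from any other list. Ntrk3, the receptor for neurotrophin-3, had a site at 78215431 on chromosome 7 (5.08) with a Silc1-/- sham summit of 3.01 at 5510 bp. Scn8a, a voltage-gated sodium channel, had one at 100965377 on chromosome 15 (6.12), 18484 bp from the nearest other summit. Cacna1e, a calcium channel, had one at 154461701 on chromosome 1 (5.08), 253862 bp from any other list. Among guidance genes, sites lay inside Slit3 (chromosome 11, 35311671, 5.08) and Plxnd1 (chromosome 6, 115989219, 4.13) and 34.7 kb from Sema5a (chromosome 15, 32731026, 5.80). A site was inside or within 10 kb of 8 of the 280 list genes, against 3.11% of all coding genes. No list gene had a site with a score of 10 or more within 50 kb. Only 35 of the 1057 sites reached that score, and the share of all coding genes with one was not counted.

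Among markers of other cells, the site inside Col1a2, a collagen gene (chromosome 6, 4539281, 5.08), was the only one inside its marker gene. Those of Col1a1 (7.71), Pecam1 (4.39), Erg (4.20), Cx3cr1 (5.08), Retnlg (5.80) and Cd79a (4.39) were 17.9 to 48.2 kb outside the marker gene. That of Cx3cr1, the fractalkine receptor of macrophages, was in or nearest to Ccr8, and that of Retnlg in or nearest to Dzip3. Sites at Rplp0 and Gpi1, both housekeeping genes, and at Myog, a muscle transcription factor, were 12.3, 21.9 and 17.0 kb outside.

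A site within 1 kb of a miRNA hairpin was found for 5 of 1005 RefSeq hairpins, or 0.498%. The number was 5 for sites of the wild-type injured list alone, 4 for Silc1-/- sham and 0 for wild-type sham, and 60 for loci in all 4 lists. These miRNAs were chosen for the text after their values were seen. Of the 5 hairpins, 4 share 1 site, at position 109594890 of chromosome 12 (score 7.23), inside the imprinted gene Rtl1. It lay 66 bp from Mir432, 291 bp from Mir434, 428 bp from Mir3071 and 437 bp from Mir136. The other lists had no summit within 15337 bp, and their nearest scored 2.81 in Silc1-/- sham (15337 bp), 6.07 in wild-type injured (51872 bp) and 4.01 in wild-type sham (200861 bp). The fifth, Mir5135, lay 33 and 262 bp from 2 sites at the end of Plekhg3 (chromosome 12, 76533245 and 76533474, scores 4.06 and 4.03). All 3 other lists had a summit 4080 to 4430 bp from these, of 26.5 in wild-type injured and 7.08 and 7.13 in the sham lists. The mature sequences of the Rtl1 group show which products the hairpins beside this site give, with the seed (bases 2 to 8) in capitals.
mmu-miR-434-5p: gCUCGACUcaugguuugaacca
mmu-miR-434-3p: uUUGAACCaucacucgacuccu
mmu-miR-432: uCUUGGAGuagaucagugggcag
mmu-miR-136-5p: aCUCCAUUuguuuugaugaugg
mmu-miR-136-3p: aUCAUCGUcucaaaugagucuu
mmu-miR-3071-5p: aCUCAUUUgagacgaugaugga
mmu-miR-3071-3p: aUCAUCAAaacaaauggagucc

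No 2 of these 7 mature miRNAs share a seed. The hairpins of Mir136 and Mir3071 overlap on opposite strands (109595327 to 109595388 and 109595318 to 109595397), and the summit lists do not give a strand.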

How the data were processed

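ATAC-seq of mouse dorsal root ganglia gave 12 libraries in 4 groups, taken from the sample titles. The authors deposited 1 summit list per group; the submitters' processing notes name Bowtie2, MACS2 and mm10. Versions, read filters, any shift of insertion positions and how libraries were pooled were not stated there. Each deposited score is a −log10 value, of p-values or of q-values; the notes do not say which. In MACS2 it depends on read pile-up and a local or genome-wide background, so scores were not compared between lists; those of other lists' summits are given beside a site as a description.

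Positions are 1-based. A locus was placed at its highest summit and annotated with RefSeq genes, promoters and miRNAs of GRCm38.p6; all 280 list symbols matched. Gene ends are either end of a coding or long noncoding RNA gene. The sites, lists and alternatives were chosen with earlier results of these data known. Named sites were the 10 highest, the 10 highest over 10 kb from other lists, the 5 highest at coding gene ends, those in the 5 genes with most sites (7 with ties), up to 3 per gene list, and 5 on each side of the score minimum. A gene that this rule names is not reported here. The code of the rule was run on simulated lists: 2000 of 2000 planted sites were found and 0 wrongly. The planted sites were defined by the same rule, so this checks the code alone. Scripts ran under Python 3.11.15 with pandas 2.3.3, numpy 2.4.6 and, for figures, matplotlib 3.10.9.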

Additional observations from a re-analysis of the deposited data

How the results depend on the processing

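No paired analysis was possible because each group has 1 list, and for the same reason no replicate could be left out. The number of sites was 588 at scores of at least 5, 35 at scores of at least 10, 5584 with no score minimum, 2043 with no distance to other lists and 2193 with every list cut to the length of the shortest. Under the 4 other alternatives it stayed within 1.5 times 1057. The share at gene ends was 0% at scores of at least 10 (35 sites), 16.1% with no distance to other lists, 3.31% for ends within 500 bp and 23.9% within 5 kb. It was the lowest of the 4 lists under 7 of 9 alternatives; at scores of at least 10 the share of wild-type sham was also 0, and with no distance required Silc1-/- sham was lower. The share outside genes stayed within its interval under all 9. The share with another list's summit within 10 kb was 57.1% at scores of at least 10, 69.2% with no distance, 22.9% with 5 kb and 31.1% at equal lengths. Genes of the lists with a site numbered 8 within 10 kb and 0 at scores of at least 10, against 20. As only 35 sites had such scores, the 0 says little about these genes. Allowing 100 bp around promoter windows gave 13 sites in place of 7. The X share, an alternative added after seeing the data, was 3.57% at scores of at least 5 and 4.06% at equal lengths. Depth is unknown, so absence from a list does not show closed chromatin.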
